A study of Mus musculus with 12 samples.

Results

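Deoxynucleotides and nucleosides are broken down by a short chain of enzymes, and 9 mouse genes of that chain were examined here: Samhd1, Nt5c, Nt5m, Nt5e, Tymp, Ada, Pnp, Cda and Upp1. They were chosen by name, among the 27599 gene names on the array, and every probe that carries one of these names was taken; Tymp is listed on the array under its older symbol Ecgf1. The 9 genes had 14 of the 41174 probes. Of these, 12 probes, with at least 1 for every gene, cleared the background on every array of some group and were tested. The series was designed around the genes that set the mitochondrial deoxynucleotide pool in muscle cells. Total RNA of 4 groups was read on 12 Agilent mouse arrays of 1 colour, 3 for each group.

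The soleus group, a slow oxidative hind limb muscle, and the EDL group (extensor digitorum longus, a fast glycolytic hind limb muscle) were whole muscles of male CD1 mice aged 3 months, and each sample pooled the muscles of both legs of 1 mouse. The myotube group was C2C12, a mouse muscle cell line, kept in 2% horse serum from 90% confluence and harvested after 96 hours. Those cells were detached with trypsin and replated for 30 min so that single-nucleus cells could settle, and the floating cells were kept. The myoblast group was the same line while dividing, at about 50% confluence in 10% fetal bovine serum. Whether the 3 cultures of a group were separate is not stated in the labels, nor whether an EDL and a soleus sample came from the same mouse. The p-values therefore measure only the spread between these samples.

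A dNTP loses its whole triphosphate to Samhd1. The 5'-nucleotidases take the phosphate from nucleoside monophosphates: Nt5c acts in the cytosol and Nt5m in mitochondria, both with a preference for deoxyribonucleotides, and Nt5e (CD73) acts on the outer face of the cell, where it makes adenosine from AMP. The nucleosides then lose an amino group or their sugar: Ada deaminates adenosine and deoxyadenosine, Cda deaminates cytidine and deoxycytidine, Pnp splits purine nucleosides, Tymp splits thymidine and Upp1 splits uridine. In human disease the loss of TYMP depletes mitochondrial DNA in muscle and other tissues, and the loss of ADA or PNP poisons lymphocytes with deoxynucleotides.

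Signals are given on the log2 scale after each array was set to its 75th percentile, so a difference of 1 is a doubling relative to that percentile. A difference was called when its adjusted p (limma's moderated test on all 12 arrays, Benjamini-Hochberg over all 28607 probes tested) was under 0.05 and its size was at least 1. One probe's level is not compared with another's. The 75th percentile itself was 476 to 640 intensity units on soleus arrays, 480 to 613 on EDL arrays, 1065 to 1290 on myotube arrays and 1110 to 1649 on myoblast arrays. Arrays set instead to the spike-in RNA added to every sample, measured by 8 probes, shifted every probe's difference by -1.22 (soleus) and -1.03 (EDL) in muscle minus myotube, -0.37 in myotube minus myoblast, -0.19 in soleus minus EDL, -1.59 in soleus minus myoblast and -1.40 in EDL minus myoblast. All changes below are therefore changes relative to the 75th percentile. Arrays of 1 group correlated with r of at least 0.981 across probes. Each of the 3 slides held 1 array of every group, and each group kept the same place on all of them, so place and group cannot be told apart. Summed signals of 5 striated muscle fibre markers were 1751000 to 1943000 in soleus, 1629000 to 1788000 in EDL, 326600 to 354100 in myotubes and 14230 to 16400 in myoblasts, and those of 2 myoblast markers were 353 to 414, 1033 to 1226, 3377 to 4056 and 4252 to 5350 in the same order. Of blood cells, 2 erythroid markers summed to 13270 to 17330 in soleus, 28160 to 36060 in EDL, at most 144 in myotubes and 136 in myoblasts, and 4 leukocyte and lymphocyte markers to 175 to 330, 268 to 513, 83.8 to 224 and 118 to 198. In the whole muscles, fewer cells of a type and less RNA per cell cannot be told apart either.

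Dividing myoblasts gave the highest signal for Samhd1 (by its brighter probe), Nt5c, Tymp, Ada, Pnp, Cda and Upp1. Nt5e and Nt5m were highest in muscle, though for Nt5m not with spike-in scaling. In myotubes minus myoblasts, 7 of the 12 probes were called, 1 higher and 6 lower, against 35.2% of all probes called (18.7% higher, 16.4% lower). In EDL minus myotube 6 were called, 3 higher and 3 lower, against 46.6% of all probes (26.5% higher, 20.1% lower). In soleus minus myotube 4 were called, 2 higher and 2 lower, against 44.4% (24.5% higher, 19.9% lower). In soleus minus EDL 1 was called, higher, against 9.4% (4.87% higher, 4.54% lower). In EDL minus myoblast 9 were called, 2 higher and 7 lower, against 56.9% (31.7% higher, 25.2% lower), and in soleus minus myoblast 10, 2 higher and 8 lower, against 54.9% (29.9% higher, 25.1% lower). Among the lower calls against myoblasts, 1 in each comparison was Upp1, which passed the filter through myoblasts alone, and among the higher calls 1 in each, and 1 in EDL minus myotube, was the dim Samhd1 probe, which passed through the muscles alone. The share of members called was 58.3%, 50%, 33.3%, 8.33%, 75% and 83.3% in that order of comparisons. The median member difference was -1.09, 0.35, 0.26, -0.25, -1.85 and -1.92, beside medians over all probes of 0.04, 0.16, 0.10, -0.04, 0.19 and 0.12. With spike-in scaling the splits were 0 higher and 10 lower in myotube minus myoblast, 2 and 4 in EDL minus myotube, 1 and 6 for soleus minus myotube, 1 and 9 in EDL minus myoblast and 0 and 10 in soleus minus myoblast, and in soleus minus EDL limma called 0, with 2 at an unadjusted p under 0.05. That scaling turned most calls of the whole array lower too. Against myotubes it called 17640 probes for soleus, 17.7% of them higher, and 16092 for EDL, 22% of them higher. Against myoblasts the higher part of all calls was 18.6% for soleus, 21.9% for EDL and 35.5% for myotubes. The lower splits of the muscles under spike-in scaling are therefore not read as a property of the members.

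**Figure D1:**
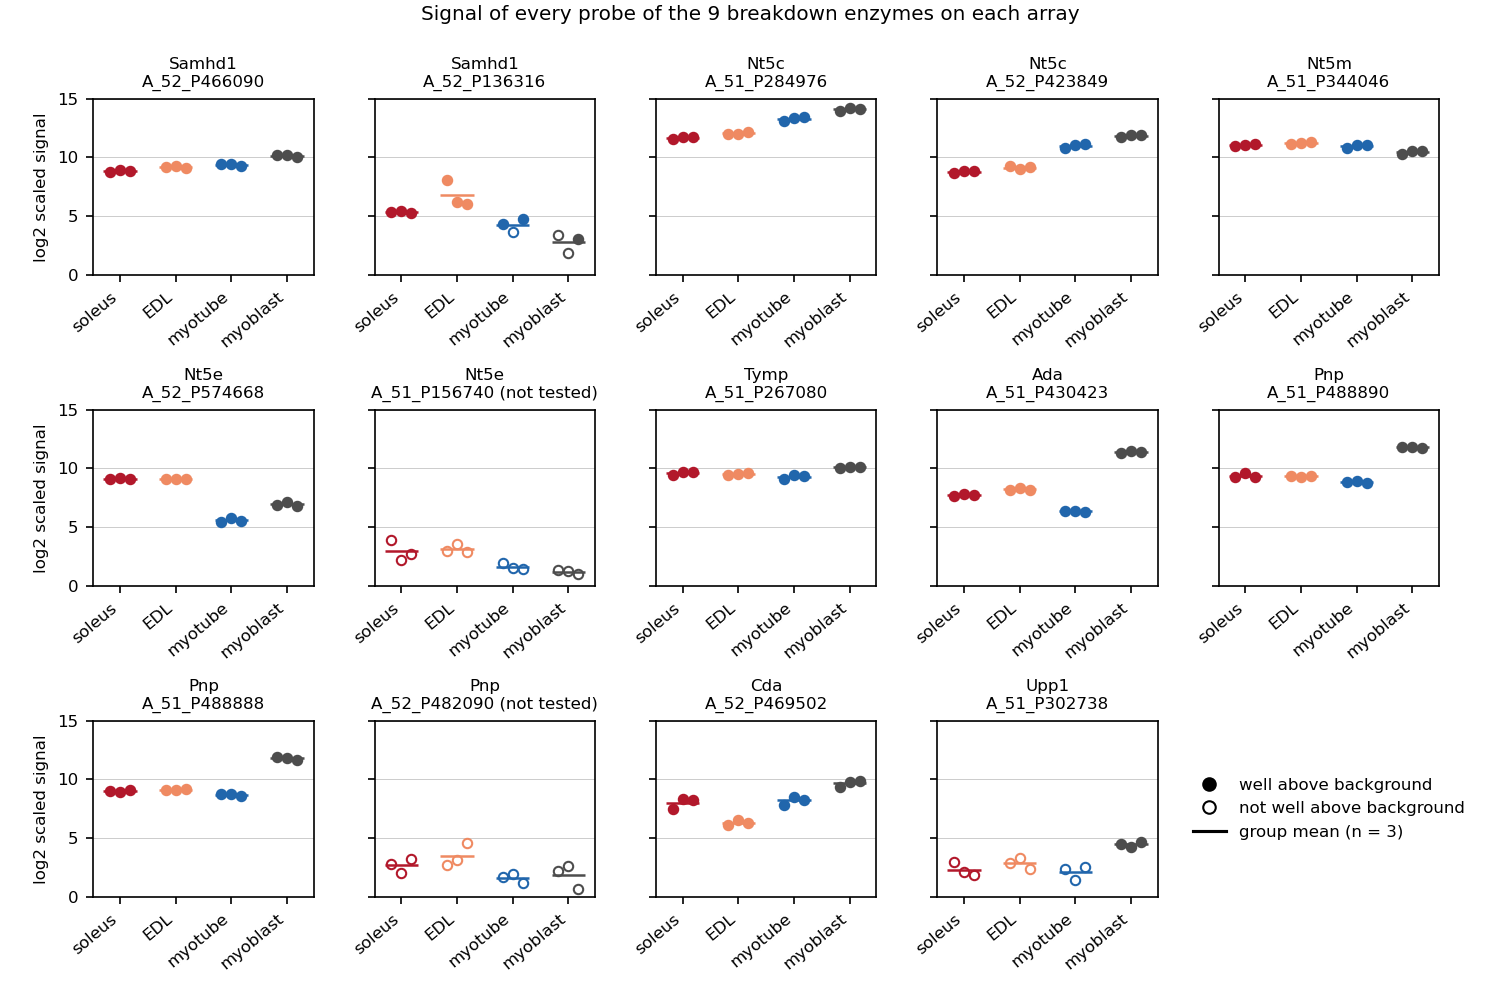
Log2 scaled signal of each of the 14 probes (panels) on each array, in soleus, EDL, myotube and myoblast order; points are arrays, lines are group means of 3 arrays, and open points were not well above background. Myoblast points lie highest for Nt5c, Ada, the 2 bright Pnp probes, Cda and Upp1, muscle points lie highest for Nt5e, and the 2 Samhd1 probes order the groups differently, with myoblasts at the top of one and at the bottom of the other.

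The purine pair Ada and Pnp fell together. Adenosine deaminase (Ada, probe A_51_P430423, chromosome 2, 163418286 to 163418345, minus strand, build mm8 of the array design) had a log2 signal of 6.33, 6.35 and 6.32 in myotubes, against 11.34, 11.48 and 11.41 in myoblasts. That is a 33.7-fold lower signal in myotubes (difference -5.07 ± 0.09 SE, adjusted p = 3.09e-11), and the differences within the 3 slides were -5.01, -5.13 and -5.09. The groups were far apart and each was tight, with an SD of 0.02 in myotubes and 0.07 in myoblasts.

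Adult muscle held more Ada signal than myotubes and less than myoblasts. Soleus arrays read 7.62, 7.85 and 7.71, and EDL arrays 8.15, 8.34 and 8.14. All 6 muscle arrays lay above the myotube arrays and below the myoblast arrays. Ada was higher than in myotubes by 1.39 in soleus (adjusted p = 1.96e-07) and by 1.88 in EDL (adjusted p = 1.83e-08), while with spike-in scaling the differences were 0.17 and 0.85 and neither was called. Against myoblasts Ada was lower by both scalings, at -3.68 in soleus and -3.20 in EDL. Between the muscles, soleus minus EDL was -0.49 (adjusted p = 0.00223), with no overlap of the groups, which is under the size asked for a call.

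Purine nucleoside phosphorylase (Pnp) has 2 bright probes whose spans on chromosome 14, 49872255 to 49872495 and 49872275 to 49872515 (plus strand, mm8), share 221 bases, so they are close to 1 measurement. Probe A_51_P488890 read 8.83, 8.91 and 8.78 in myotubes and 11.83, 11.85 and 11.78 in myoblasts, and probe A_51_P488888 read 8.76, 8.77 and 8.57 in myotubes and 11.90, 11.87 and 11.70 in myoblasts. The myotube and myoblast arrays did not overlap for either probe. The difference was -2.98 ± 0.10 (7.89-fold lower, adjusted p = 2.92e-09) for the first probe and -3.12 ± 0.09 (8.71-fold lower, adjusted p = 6.99e-10) for the second.

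In muscle, Pnp stayed near the myotube level. Probe A_51_P488890 read 9.26, 9.64 and 9.28 in soleus and 9.34, 9.31 and 9.34 in EDL. These were 0.55 and 0.49 above myotubes, under the size for a call, and with spike-in scaling the sign was the opposite (-0.67 and -0.54). Both muscles were below myoblasts, soleus by -2.43 and EDL by -2.49 on the log2 scale for that probe and by -2.79 and -2.72 for the other. The other Pnp probe, A_52_P482090 (chromosome 14, 49875215 to 49875274, mm8), lay 2699 bases past the nearer of the others and cleared the background on no array. Pnp2, a near-identical gene, lies beside Pnp in the reference gene table, and how far the probes tell the copies apart was not tested.

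The windows before the start of Ada and Pnp are shown because these members fell together, and that of Nt5e because its muscle signal was above that of myoblasts, where theirs was below (the Nt5e calls against myoblasts depend on the scaling, as given further on). Each is the 250 bases before the start in RefSeq (GRCm38.p6, a later build than that of the probes), 5' to 3' on the strand of the gene: Ada chr2:163750240-163750489 (minus), Pnp chr14:50944053-50944302 (plus) and Nt5e chr9:88327359-88327608 (plus). Capitals mark the GC box GGGCGG and the CCAAT box CCAAT on either strand, with overlapping matches joined.
Ada: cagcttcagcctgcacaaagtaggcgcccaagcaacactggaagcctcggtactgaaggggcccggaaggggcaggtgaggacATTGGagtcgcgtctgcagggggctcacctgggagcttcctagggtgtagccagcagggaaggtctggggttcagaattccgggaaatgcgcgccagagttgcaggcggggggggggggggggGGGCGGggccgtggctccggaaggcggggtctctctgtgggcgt
Pnp: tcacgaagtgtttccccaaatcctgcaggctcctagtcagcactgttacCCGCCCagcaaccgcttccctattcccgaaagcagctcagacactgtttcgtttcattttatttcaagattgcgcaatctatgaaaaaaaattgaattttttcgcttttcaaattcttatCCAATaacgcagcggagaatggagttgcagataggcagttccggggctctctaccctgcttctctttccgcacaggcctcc
Nt5e: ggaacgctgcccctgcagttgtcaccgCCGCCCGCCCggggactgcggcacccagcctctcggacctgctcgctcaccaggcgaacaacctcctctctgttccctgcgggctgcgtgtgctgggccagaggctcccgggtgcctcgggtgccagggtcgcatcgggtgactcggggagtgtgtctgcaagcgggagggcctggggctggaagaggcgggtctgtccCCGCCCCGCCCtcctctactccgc
Ada and Pnp each had 1 GC box and 1 CCAAT box in this window, and Nt5e had 4 GC boxes, which overlap in 2 pairs, and no CCAAT box. Of the members not shown, Samhd1, Nt5c, Nt5m and Cda each had 1 GC box and no CCAAT box. Upp1 had no CCAAT box either, and Tymp had 2 and no GC box. The boxes thus did not sort the members by their calls in myotube minus myoblast. Of all 32851 RefSeq windows of this length, 32.7% held a GC box and 33.8% a CCAAT box. The E2F motif, searched as TTTCCCGC, TTTCGCGC, TTTGCCGC and TTTGGCGC on both strands, was in 1.86% of all windows and in none of these 3, and CAGCTG, an E-box form, was in 13% and likewise in none of them. The windows were 67.2% G or C for Ada, 46.8% for Pnp and 72% for Nt5e, beside a median of 52.4% over all windows. A match is only a run of letters, and its absence says nothing about the factor.

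Markers of dividing cells were, like Ada and Pnp, highest in myoblasts, but they ordered the other groups differently. The summed signal of 3 such markers, scaled like the members, was 228 to 248 in soleus, 128 to 154 in EDL, 662 to 700 in myotubes and 35620 to 39790 in myoblasts. Of the 3, 1 cleared the background on every muscle array and 2 on none of them, and all 3 did so on every myotube and myoblast array. Against myotubes, the marker sum was lower in both muscles, while Ada was higher (1.39 in soleus, 1.88 in EDL). The bright Pnp probes also read higher there, under the size for a call and with the opposite sign under spike-in scaling. Between the muscles the marker sum was higher in soleus, where Ada was lower (-0.49), a sign not kept with normexp correction. The part of dividing cells in the fall of Ada and Pnp was not tested. The genes whose pattern over the 12 arrays was nearest to that of Ada, by root mean square distance of the mean-centred log2 values, were Lmnb1 (distance 0.22, r = 0.996) and Apbb1ip (0.23, r = 0.995). For Pnp they were Cntln (0.13, r = 0.994) and Tor4a (0.14, r = 0.995). These correlations describe 12 arrays that fall into 4 groups.

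Nt5e, the ecto-enzyme that makes extracellular adenosine, was lower in myotubes than in myoblasts, as Ada and Pnp were, but in muscle it read above myoblasts, where Ada and Pnp read below them. Probe A_52_P574668 (chromosome 9, 88169671 to 88169730, plus strand, mm8) read 9.11, 9.15 and 9.14 in soleus, 9.13, 9.08 and 9.12 in EDL, 5.45, 5.80 and 5.54 in myotubes, and 6.87, 7.11 and 6.81 in myoblasts. The 6 muscle arrays lay together, above all myoblast arrays, which lay above all myotube arrays. Nt5e was 11.6-fold higher in soleus than in myotubes (3.54 ± 0.11, adjusted p = 8.59e-10) and 11.4-fold higher in EDL than in myotubes (3.51 ± 0.11, adjusted p = 8.18e-10). Within slides the soleus difference was 3.67, 3.35 and 3.60 and the EDL difference 3.68, 3.28 and 3.58.

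Soleus and EDL did not differ detectably in Nt5e: the difference was 0.03, with a 95% interval of -0.22 to 0.27 (adjusted p = 0.901). Against myoblasts Nt5e was higher by 2.21 in soleus and 2.18 in EDL. Those calls were lost with spike-in scaling (0.62, adjusted p = 0.153, and 0.79, adjusted p = 0.0785) and with normexp background correction (1.02, adjusted p = 0.227, and 0.89, adjusted p = 0.276). Myotubes were below myoblasts by -1.33 ± 0.11 (2.51-fold, adjusted p = 1.93e-06), a call lost with normexp correction (-1.42, adjusted p = 0.106). The other Nt5e probe, A_51_P156740 (88167096 to 88168062, a span of 967 bases), cleared the background on no array. Its low readings were 2.17 to 3.89 in soleus, 2.84 to 3.52 in EDL, 1.43 to 1.89 in myotubes and 1.02 to 1.36 in myoblasts.

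Summed markers of cells other than muscle fibres were, like Nt5e, higher in both muscles than in both cultures. The summed signal of 8 endothelial markers was 39700 to 43080 in soleus, 37380 to 37900 in EDL, 152 to 200 in myotubes and 823 to 990 in myoblasts. All 8 were well above background on every muscle array, and 4 were so on no myotube array and 4 on no myoblast array. Most of the myoblast sum was Flt1, with means of 9.65 in myoblasts and 5.48 in myotubes. Eng went the other way, at 5.54 in myoblasts and 6.59 in myotubes. For 6 fibroblast markers the sum was 95370 to 101400 in soleus, 130800 to 157800 in EDL, 5033 to 6316 in myotubes and 9234 to 11250 in myoblasts. Between the cultures Col1a1 went with this sum (11.20 in myotubes, 13.11 in myoblasts), while Dcn was higher in myotubes (11.68, and 10.31 in myoblasts). For 10 macrophage markers it was 15390 to 16180 in soleus, 14470 to 14930 in EDL, 355 to 414 in myotubes (2 arrays, as 1 marker spot was an outlier on the other) and 228 to 267 in myoblasts. The macrophage sum was thus higher in myotubes than in myoblasts, where Nt5e was lower. Most of that difference was Mrc1, with means of 6.77 in myotubes and 1.87 in myoblasts. Adgre1, C1qa and C1qc cleared the background on no culture array. Among the macrophage markers Cd68 did not follow the sum, with means of 6.16 in EDL, 6.34 in myotubes and 6.77 in myoblasts. The part of these cells in the muscle signal of Nt5e and Ada was not tested. Genes nearest in pattern to Nt5e were Mgst3 (distance 0.16, r = 0.995) and Tspan2 (0.18, r = 0.993).

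Nt5c, the cytosolic deoxyribonucleotidase, was lower in muscle than in both cultures, by both of its probes. Probe A_51_P284976 (chromosome 11, 115306535 to 115306594, minus strand, mm8) read 11.62, 11.75 and 11.72 in soleus, 12.02, 12.01 and 12.14 in EDL, 13.13, 13.39 and 13.43 in myotubes, and 13.96, 14.26 and 14.17 in myoblasts. No 2 groups overlapped. Soleus was 3.08-fold below myotubes (-1.62 ± 0.11, adjusted p = 3.08e-07) and EDL 2.40-fold below them (-1.27 ± 0.11, adjusted p = 2.1e-06).

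The second Nt5c probe, A_52_P423849, lies 368 bases away and followed the first with r = 0.995 over the 12 arrays. It gave larger differences, -2.23 in soleus minus myotube and -1.88 in EDL minus myotube. Myotubes were below myoblasts by -0.81 and -0.85 on these probes (adjusted p = 8.88e-05 and 1.17e-04), under the size for a call, and by -1.18 and -1.22, both called, with spike-in scaling. Soleus minus EDL was -0.36 and -0.35, again under that size. The nearest genes in pattern were Eif6 (distance 0.08, r = 0.997) and Polr3g (0.12, r = 0.995).

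Nt5m, the mitochondrial counterpart of Nt5c, varied least of the 9 lead probes, with group means spanning 0.77. Probe A_51_P344046 (chromosome 11, 59692425 to 59692484, plus strand, mm8) had means of 11.06 in soleus, 11.25 in EDL, 10.95 in myotubes and 10.48 in myoblasts (SD 0.07, 0.08, 0.14 and 0.12, n = 3 each). No comparison was called. The widest was EDL minus myoblast, 0.77 (95% interval 0.54 to 0.99, adjusted p = 4.33e-05), which had the opposite sign with spike-in scaling (-0.63). Myotube minus myoblast was 0.47 (adjusted p = 0.00205). So the 2 deoxyribonucleotidases were ordered differently: Nt5c from myoblast down to soleus, and Nt5m with EDL at the top and myoblast at the bottom. Soleus minus EDL was -0.19 with no overlap of the groups, and -0.19, -0.16 and -0.21 within the slides; its adjusted p was 0.204, and 0.0391 with the slide as a replicate block, at a size under that for a call. Soleus and myotube were neighbours of Nt5m that did not differ detectably (adjusted p = 0.361, and 0.139 with the block).

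**Figure D2:**
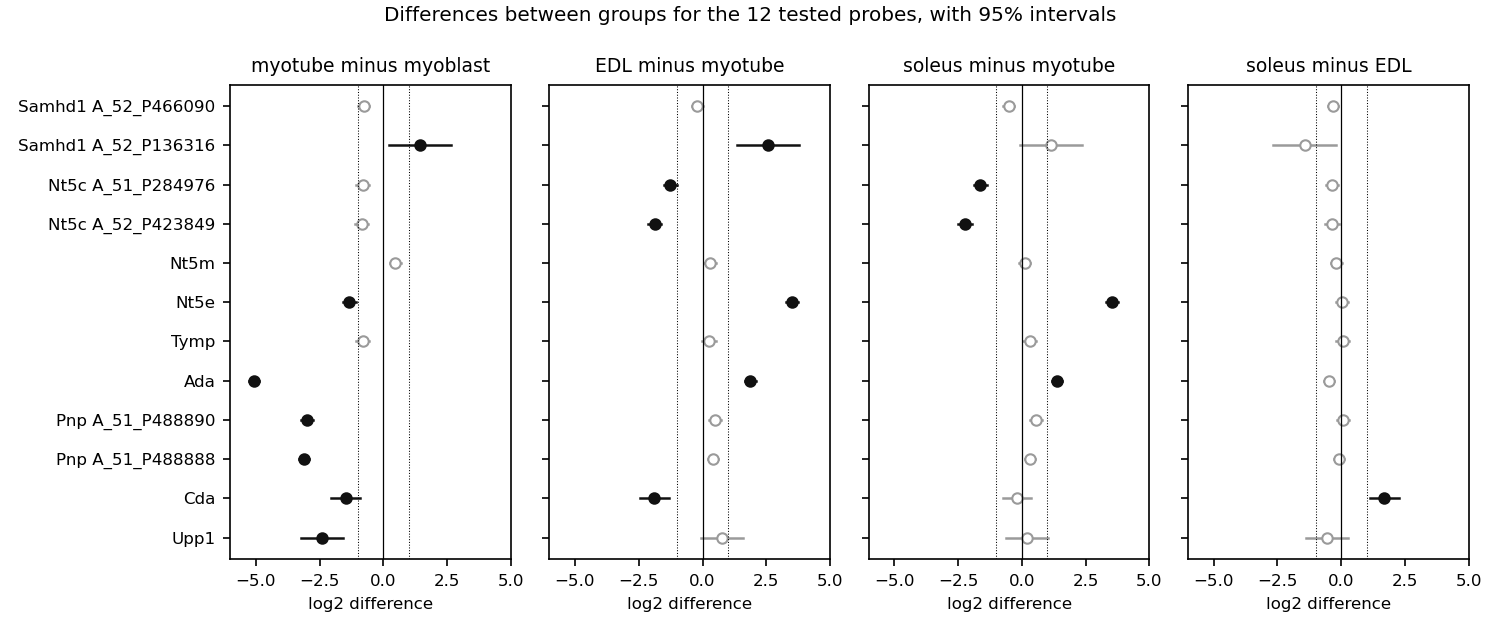
Log2 differences (x axis) of the 12 tested probes (rows) in the 4 main comparisons, with 95% intervals; filled points were called and dotted lines mark a difference of 1 either way. Ada has the largest difference in myotubes minus myoblasts (-5.07), Nt5e in both muscles minus myotubes (3.54 and 3.51), and Cda alone was called in soleus minus EDL (1.70).

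Cda, cytidine deaminase, was the member called in soleus minus EDL, where 8.33% of member probes and 9.4% of all probes were called. Ada, Nt5c and Samhd1 (brighter probe) also had an adjusted p under 0.05 there, at smaller differences. Probe A_52_P469502 (chromosome 4, 137610903 to 137610962, minus strand, mm8) read 7.49, 8.34 and 8.23 in soleus and 6.13, 6.54 and 6.32 in EDL, with no overlap. Soleus was 3.24-fold higher (1.70 ± 0.25, adjusted p = 6.11e-04), and by 1.37, 1.81 and 1.92 within the 3 slides. With spike-in scaling the sign was the same but the difference was not called (adjusted p = 0.141).

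Myotubes read 7.85, 8.49 and 8.29 for Cda and myoblasts 9.37, 9.80 and 9.90. Slide 1, scanned on another day than the others, gave the lowest Cda value in each of the 4 groups. Myotubes were below myoblasts (-1.48 ± 0.25, adjusted p = 4.57e-04) and EDL below myotubes (-1.88 ± 0.25, adjusted p = 6.25e-05). Soleus and myotubes overlapped (difference -0.19, 95% interval -0.75 to 0.38, adjusted p = 0.526). Against myoblasts the difference was -1.67 in soleus and -3.37 in EDL. The nearest genes in pattern were Rai14 (distance 0.31, r = 0.969) and Fkbp11 (0.31, r = 0.969). Slow fibre markers, 3 in the list, summed to 1067000 to 1125000 in soleus and 78520 to 99670 in EDL, and 3 fast fibre markers to 325400 to 390900 in soleus and 1156000 to 1243000 in EDL. The part of fibre type in the Cda difference was not tested.

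The phosphorylases Tymp and Upp1 act on pyrimidine nucleosides. Thymidine phosphorylase (Tymp, probe A_51_P267080, chromosome 15, 89199857 to 89199916, minus strand, mm8) read 9.40 to 9.69 in soleus, 9.46 to 9.64 in EDL, 9.07 to 9.43 in myotubes and 10.04 to 10.13 in myoblasts. The myoblast arrays lay above all others, yet no comparison reached the size for a call; myotube minus myoblast was -0.81 ± 0.12 (adjusted p = 1.57e-04). With spike-in scaling Tymp was called lower than in myoblasts in soleus (-2.09), EDL (-1.96) and myotubes (-1.18).

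Upp1, uridine phosphorylase, was measured in myoblasts alone. Probe A_51_P302738 (chromosome 11, 9018223 to 9018282, plus strand, mm8) cleared the background on the 3 myoblast arrays, at 4.53, 4.22 and 4.66, and on none of the other 9. The readings there were 1.83 to 2.95 in soleus, 2.35 to 3.30 in EDL and 1.39 to 2.52 in myotubes, all at background. As a floor, each dim array was given the higher of its lowest signal well above background and the probe's own. Upp1 was then 1.17-fold lower in soleus, 1.03-fold lower in EDL and 2.00-fold lower in myotubes than in myoblasts. This floor is not a detection limit: on EDL replicate 3 a Pnp probe at 4.59 was not well above background. No lower limit is therefore read from these folds. The probe was tested through its myoblast arrays alone, so its 3 calls against myoblasts set readings at background against the group that let it in, and nothing is read from them. None of them was kept with normexp correction. Prl3d2 (distance 0.30, r = 0.978) and Slc39a8 (0.30, r = 0.955) were nearest in pattern, but 9 of the 12 Upp1 values are at background.

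Samhd1, the dNTP triphosphohydrolase, had 2 tested probes that ordered the groups differently. Probe A_52_P466090, whose bases align over a span of 1354 on chromosome 2 (156796349 to 156797702, minus strand, mm8) and which represents the RefSeq transcript in the array design, read 8.79, 8.94 and 8.87 in soleus, 9.18, 9.29 and 9.08 in EDL, 9.42, 9.45 and 9.29 in myotubes, and 10.25, 10.19 and 10.03 in myoblasts. Muscle and myotube arrays all lay below the myoblast arrays. Only soleus minus myoblast was called (-1.29 ± 0.09, 2.44-fold lower, adjusted p = 3.66e-07). EDL minus myoblast was -0.97 and myotube minus myoblast -0.77, both with small adjusted p (3.63e-06 and 3.9e-05) but under the size for a call.

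With spike-in scaling this Samhd1 probe was called lower in 5 comparisons: both muscles minus myoblast (EDL -2.37), both muscles minus myotube (soleus -1.74, EDL -1.23), and myotube minus myoblast (-1.14). With normexp correction the soleus minus myoblast difference was -0.82 and not called. The direction against myoblasts was the same under those scalings.

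Probe A_52_P136316 lies 5255 bases away from the first (chromosome 2, 156791034 to 156791093, minus strand, mm8), towards the 3' side, and represents a cDNA clone in the array design. It was dim. Its log2 signal was 5.34, 5.43 and 5.30 in soleus, 8.06, 6.23 and 6.05 in EDL, 4.29, 3.62 and 4.72 in myotubes, and 3.41, 1.86 and 3.05 in myoblasts. It cleared the background on every soleus and EDL array, on 2 myotube arrays and on 1 myoblast array. The order was thus another one, with EDL at the top and myoblasts at the bottom, and EDL replicate 1 stood above the other EDL arrays.

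By this dim probe, Samhd1 was called higher in soleus minus myoblast (2.58 ± 0.55, adjusted p = 0.00145), EDL minus myoblast (4.01 ± 0.55, adjusted p = 6.02e-05), EDL minus myotube (2.57 ± 0.55, adjusted p = 0.00171) and myotube minus myoblast (1.44 ± 0.55, adjusted p = 0.0422). The probe was tested through its soleus and EDL arrays alone. Its calls against the cultures thus set readings partly at background against the groups that let it in. In myotube minus myoblast neither group cleared the background on every array, and nothing is read from these 4 calls. All 4 calls were lost with normexp correction, where myotube minus myoblast had the opposite sign (-1.09, adjusted p = 0.385). The soleus minus myoblast call was also lost with spike-in scaling (0.99, adjusted p = 0.0837). The myotube minus myoblast call was also lost with spike-in scaling, quantile normalization, the authors' values or no filter, and without replicate 2 or 3, without myoblast replicate 2 or 3, or without myotube replicate 1 or 3. With the slide as a replicate block, soleus minus myotube (1.15, adjusted p = 0.0496) and soleus minus EDL (-1.43, adjusted p = 0.0382) were called as well, against adjusted p = 0.0864 and 0.0794 without the block. Without EDL replicate 1, soleus minus EDL was -0.79 (adjusted p = 0.225, no block). Over the 12 arrays the 2 Samhd1 probes correlated with r = -0.74, a description of arrays that fall into 4 groups. Which transcripts the dim probe reads was not tested.

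**Figure D3:**
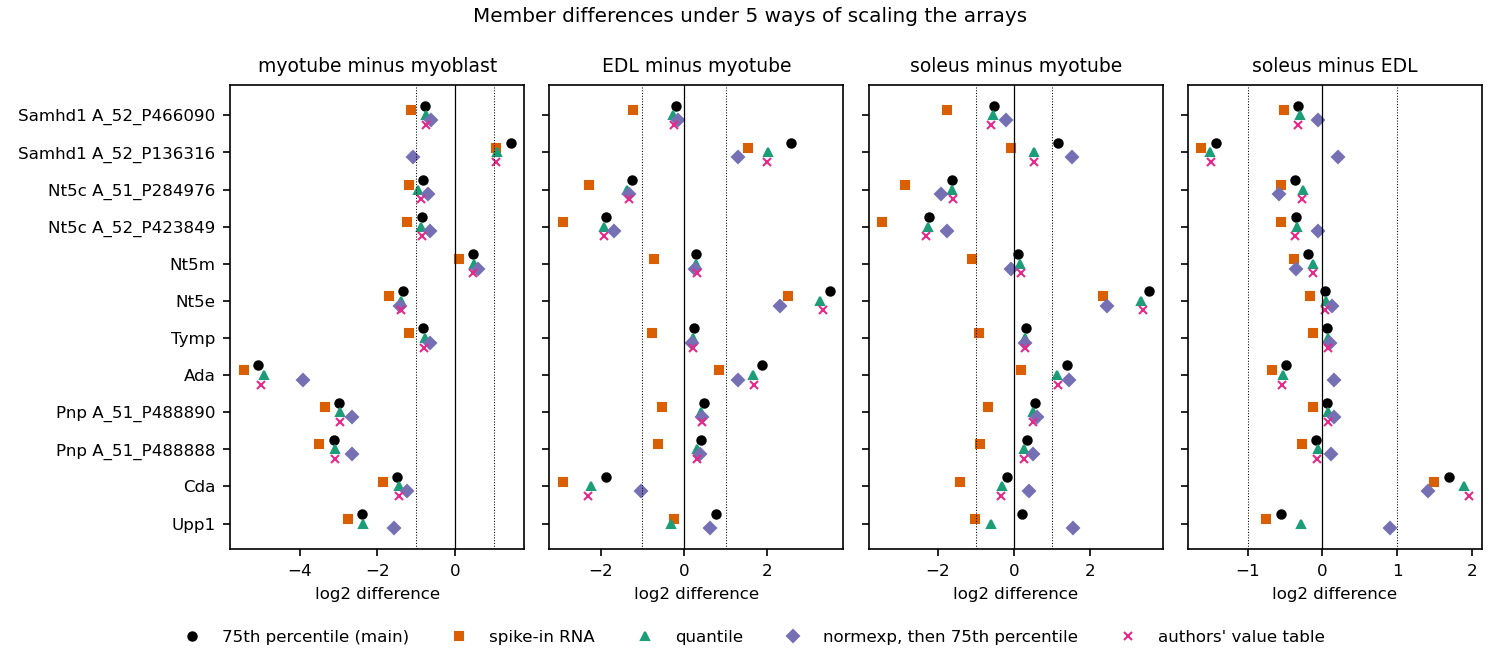
Log2 differences (x axis) of the 12 tested probes (rows) in the 4 main comparisons under 5 ways of treating the arrays, 1 symbol each. The falls of Ada, Pnp and Cda in myotubes minus myoblasts and the rise of Nt5e in muscle minus myotubes keep their sign under all 5, while spike-in scaling turns Pnp, Nt5m and Tymp below 0 in muscle minus myotube.

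The other genes of nucleotide breakdown and salvage were taken as 6 lists of 63 genes, each gene by its brightest tested probe. The list counts were not tested against the shares of all probes called, given above, so they set no list apart. With spike-in scaling the calls of the whole array against myotubes were mostly lower too, with 22% higher for EDL and 17.7% for soleus. Of 8 other 5'-nucleotidases and phosphatases tested, 2 were called in myotube minus myoblast (1 higher, 1 lower), 5 in EDL minus myotube (2 higher, 3 lower), 6 in soleus minus myotube (2 higher, 4 lower) and 1, lower, in soleus minus EDL. With spike-in scaling the EDL and soleus splits against myotubes were 2 higher and 4 lower, and 2 higher and 6 lower. Alpl, the tissue-nonspecific alkaline phosphatase, was higher than in myotubes by 5.97 in soleus and 5.57 in EDL. Nt5dc2 was lower than in myotubes in both muscles, -3.80 in soleus and -4.78 in EDL, where 2 of 3 EDL arrays were well above background. In myotube minus myoblast Alpl was 4.01, with only 1 myoblast array well above background (-0.17, not called, with normexp correction), and Nt5dc2 -1.20 (-0.97, not called, with that correction). With normexp correction limma called 0 of the 8 there, with 2 at an unadjusted p under 0.05. Nt5dc3 was the 1 called in soleus minus EDL (-1.32).

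Of 8 other nucleoside phosphorylases, deaminases and sugar phosphate enzymes, 5 were called in myotube minus myoblast (2 higher, 3 lower), 3 in EDL minus myotube (2 higher, 1 lower), 5 in soleus minus myotube (2 higher, 3 lower) and 2, both lower, in soleus minus EDL. With spike-in scaling 5 of the 7 called in EDL minus myotube were lower, and all 6 called in soleus minus myotube. Dctd, which deaminates dCMP, was lower in myotubes than in myoblasts (-3.88 on the log2 scale, and -2.20 by its other tested probe), and so was Pgm2 (-3.12). Mtap, which splits methylthioadenosine, was lower in soleus than in myotubes (-2.70) and than in EDL (-2.17; -1.27 and not called with normexp correction). Adal, an adenosine deaminase-like gene, was higher than in myotubes by 1.75 in soleus and 2.17 in EDL. With spike-in scaling the soleus value was 0.53 and not called. The other tested Adal probe gave 0.74 in soleus, not called, and 1.19 in EDL, called. Pgm1 was higher in EDL than in myotubes (3.53) and lower in soleus than in EDL (-2.00).

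Base catabolism was tested by 7 genes. In myotube minus myoblast 4 were called, 3 higher and 1 lower (with spike-in scaling 1, which was lower). The higher ones named by the rule, Upb1 (1.75 ± 0.57, adjusted p = 0.0219) and Dpys (1.72 ± 0.67, adjusted p = 0.0457), were dim and lost their calls with spike-in scaling, quantile normalization or normexp correction, where both had the opposite sign (-0.86 and -0.92). In EDL minus myotube and in soleus minus myotube 3 were called, all higher (with spike-in scaling 3 higher and 2 lower in soleus; with the replicate block 4 higher and 1 lower in soleus). Xdh, xanthine dehydrogenase, was higher than in myotubes by 4.82 in soleus and 5.41 in EDL, and Dpyd, which starts pyrimidine breakdown, by 5.16 in soleus and 3.24 in EDL. Dpyd was the 1 called in soleus minus EDL (1.91, adjusted p = 2.4e-05). With normexp correction Dpyd lost its calls in soleus minus EDL (1.47, adjusted p = 0.492) and EDL minus myotube (1.54, adjusted p = 0.149), and against myotubes 1 gene was called for EDL and 2 for soleus. By limma with that correction 0 genes were called in myotubes against myoblasts (1 at an unadjusted p under 0.05) and 0 between the muscles (0 at an unadjusted p under 0.05). The summed signals of the endothelial, fibroblast and macrophage markers above were higher on the muscle arrays, though Cd68 was not higher in EDL. The part of those cells in these differences was not tested.

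Of 10 enzymes that clean the nucleotide pool, 5 were called in myotube minus myoblast (1 higher, 4 lower), 3 in EDL minus myotube (1 higher, 2 lower), 3 in soleus minus myotube, all lower, and 2 in soleus minus EDL (1 higher, 1 lower). With spike-in scaling all calls were lower: 5, 5 and 6 in the comparisons of that order before soleus minus EDL. Dut, which removes dUTP, was lower in myotubes than in myoblasts (-3.44), and so was Nudt5, which hydrolyses ADP-sugars (-1.52). In muscle relative to myotubes, Nudt5 was -1.23 in soleus and -2.28 in EDL, and Itpa, which removes ITP, was -1.55 in soleus and -1.29 in EDL. Between muscles, Nudt5 was higher in soleus (1.04) and Nudt18 lower (-1.12), and both calls were lost with spike-in scaling and with normexp correction. The other tested Nudt18 probe gave -0.26 between the muscles and was not called. With normexp correction the list had 3 calls in myotubes against myoblasts, and against myotubes 2 for EDL and 1 for soleus, where the Nudt5 call was lost (-0.82).

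Of 15 genes of extracellular breakdown, nucleoside transport and adenosine receptors, 5 were called in myotube minus myoblast (4 higher, 1 lower) and 7 in each muscle minus myotube (4 higher, 3 lower in both). These counts are close to the shares of all probes called in those comparisons, so nothing is read from them about the list. With spike-in scaling the counts were 2 higher and 1 lower in myotube minus myoblast, 4 higher and 4 lower in EDL minus myotube and 4 higher and 7 lower in soleus minus myotube. The limma fit called 0 in soleus minus EDL, where 5 had an unadjusted p under 0.05. Entpd1 (CD39), which feeds AMP to Nt5e, did not clear the background on the myotube arrays. With myotubes set to the floor used for Upp1, it was 66.2-fold higher in soleus and 58.1-fold higher in EDL (limma without the floor, adjusted p = 1.74e-08 and 2.02e-08). Slc28a2, a concentrative nucleoside transporter, was likewise at background in myotubes and, by that floor, 110-fold higher in soleus and 97.0-fold higher in EDL. In myotube minus myoblast Entpd3 was 5.49, with 1 myoblast array well above background (0.96 and not called with normexp correction), and Slc29a3 was -2.19 (-1.64 and not called with normexp correction). With that correction limma called 0 of the 15 in myotube minus myoblast (0 at an unadjusted p under 0.05) and 4 in each muscle minus myotube (3 higher, 1 lower in both).

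The salvage kinases and phosphoribosyltransferases, which work against breakdown, were 10 genes. In myotube minus myoblast 5 were called (1 higher, 4 lower), in EDL minus myotube 5 (3 higher, 2 lower), in soleus minus myotube 4 (2 higher, 2 lower) and in soleus minus EDL 1, lower. Beside these counts of 10 genes, the shares of all probes called were 35.2%, 46.6%, 44.4% and 9.4% in the same order. With spike-in scaling each muscle minus myotube had 1 higher and 6 lower, where most calls of the whole array were lower as well. Tk1, the cytosolic thymidine kinase of dividing cells, was lower in myotubes than in myoblasts (-5.44, adjusted p = 1.16e-09), and so was Dck, the deoxycytidine kinase (-3.29, adjusted p = 1.7e-08). The mitochondrial kinases were not called there: Tk2 was -0.31 (adjusted p = 0.106) and Dguok 0.00 (adjusted p = 0.987).

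In muscle relative to myotubes, Tk1 was 0.48 in soleus (not called) and 2.07 in EDL, Dck was -0.54 and -0.52, Tk2 was -0.36 and -0.26, and Dguok was 1.01 and 1.12, the soleus value of Dguok having the opposite sign with spike-in scaling. Another Dck probe, A_52_P602719, gave -2.07 in soleus and -1.90 in EDL, both called. Adk, which phosphorylates adenosine, was higher by 2.89 in soleus and 2.81 in EDL, and Uck2, a uridine and cytidine kinase, lower by -1.71 and -2.21. Tk1 was the 1 called in soleus minus EDL (-1.59, adjusted p = 5.71e-05), a call lost with normexp correction (-1.03, adjusted p = 0.068). The EDL call of Tk1 and both of Dguok were lost with spike-in scaling, and the soleus call of Dguok with normexp correction too. So for adenosine, in soleus and EDL relative to myotubes, the kinase Adk, the deaminase Ada and the ecto-nucleotidase Nt5e were all called higher by 75th percentile scaling.

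**Figure D4:**
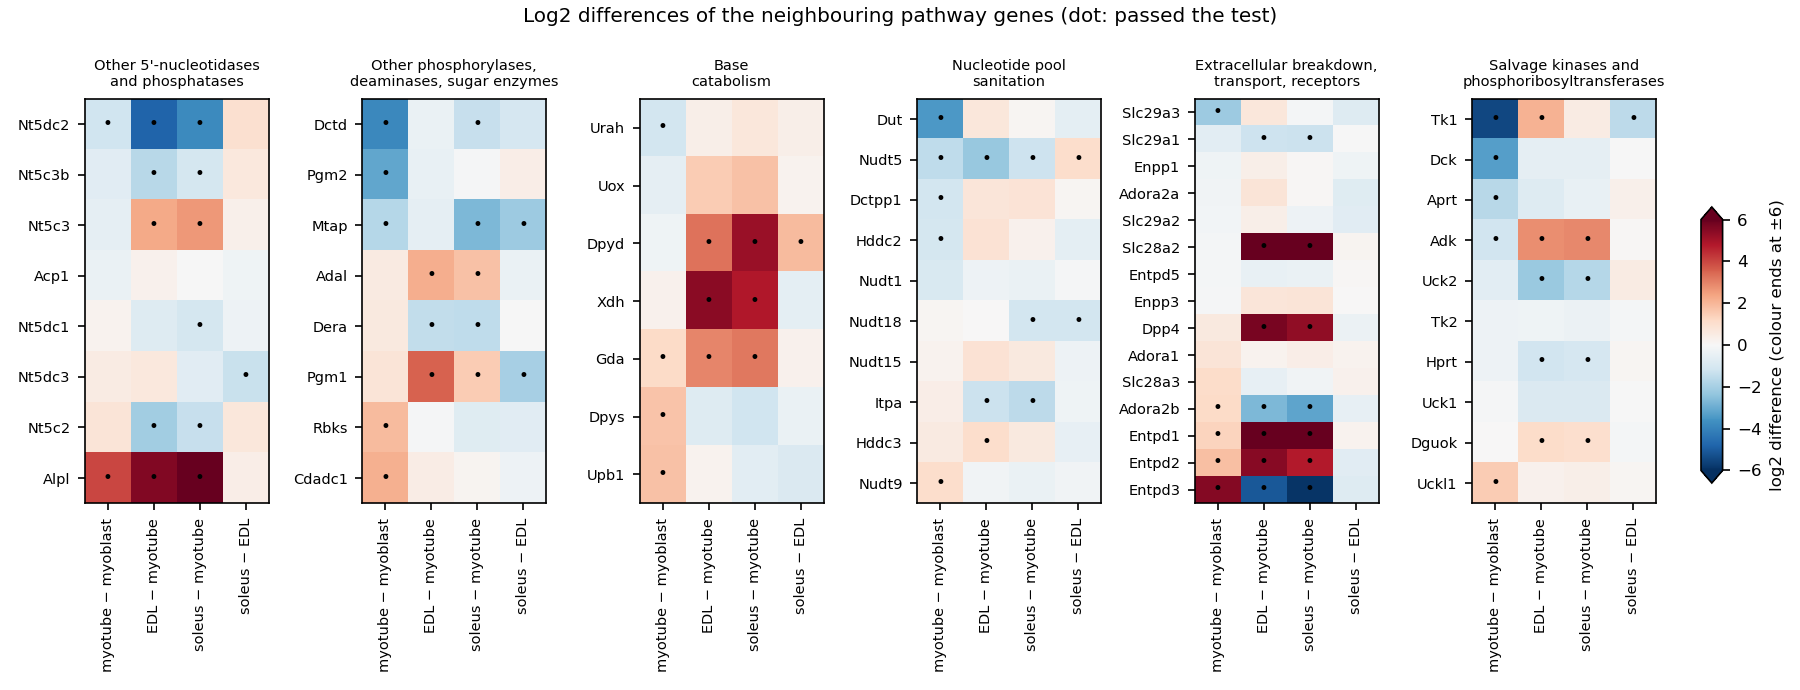
Log2 differences of the 58 tested genes of the 6 neighbouring lists (panels, 1 row a gene, columns the 4 main comparisons), red higher and blue lower in the group named first; a dot marks a call. Tk1 is the lowest in myotubes minus myoblasts (-5.44), and Alpl, Xdh, Dpyd, Entpd1 and Slc28a2 are red in both muscles minus myotubes.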

How the data were processed

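Each array's deposited scanner output lists, per the file headers, a processed intensity for every spot (Agilent Feature Extraction, version 10.5.1.1), already corrected for background and spatial trend but not scaled between arrays, and flags of 0 or 1 for spots above background, saturated or outlying. The deposited value table holds an intensity on a linear scale whose between-array normalization is not given in the sources used here; it was an alternative only.

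Control spots and 68 to 140 outlier spots per array were left out, no spot was saturated, and spots of a probe were averaged. Log2 signals had each array's 75th percentile subtracted and 9.71 added back. Probes well above background on all 3 arrays of a group were tested (28607). Across arrays 57.4% to 72.8% of probes were well above background; the number of arrays limits the precision. Probes were named by accession (24375), symbol (6301) or synonym (2422) in the reference genes (GRCm38.p6, used for names only), or kept the file's name (8076). No deposited per-sample column was left unmapped.

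Differences were tested two-sided with limma 3.58.1 (R 4.3.3, with version 1.17.8 of data.table), 4 group means on 12 arrays, 8 residual and 1.84 prior degrees of freedom, for 6 comparisons, 4 of them main. On data simulated for myotube minus myoblast over 28458 probes, 98%, 80%, 64% and 90% of changes of -3, -1.5, 1.5 and 3 were called, with 9 of 28258 false calls. The simulated noise was independent between arrays, and 50 probes were changed for each size, against 10058 probes called in the data. Those rates check the procedure and are not the power or the false call rate in these data. Same-numbered samples share a slide, and their deviations correlated at 0.21 to 0.62 in every pair of groups (at most 0.18 for other numbers), so the numbers pair the samples; the slide was an alternative block. Other alternatives were normexp (offset 50), spike-in, quantile, the authors' values, other filters, only the compared groups, outlier spots kept, 1 probe a gene, and arrays left out.

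The members and the gene lists were chosen with earlier results of these data known. All members are named with every probe; from each list, the 2 largest called differences in each main comparison and Tk1, Tk2, Dck and Dguok; and, for members whose group means span at least 2, the 2 genes nearest in pattern. Of the 63 listed genes 58 were tested. Lists of leukocytes, erythroid cells, muscle fibres and myoblasts were measured too. Promoter windows came from RefSeq (GRCm38.p6), which had an entry for all 9 members.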

Additional observations from a re-analysis of the deposited data

How the results depend on the processing

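Most member differences kept their direction and their side of the threshold: of 1333 repeats over single probes, 1254 did, 27 lost a call, 20 gained one and 32 changed sign. The share kept was smaller where the scaling or background correction changed. With spike-in scaling 39 were kept, 16 changed sign, 10 gained a call and 7 lost one. With normexp correction 54 were kept, 7 changed sign and 11 lost a call. The counts of called probes were within 1.5 times in 103 of 108 repeats. With normexp correction the count was 4 in myotube minus myoblast and 5 in soleus minus myoblast, with spike-in scaling 7 for soleus minus myotube and 0 for soleus minus EDL (limma, 2 at an unadjusted p under 0.05), and with the replicate block 2 in soleus minus EDL; the block changed no other member call than the 2 of Samhd1 given above. Leaving out arrays gave counts of 6 to 7 in myotube minus myoblast and in EDL minus myotube, 1 for soleus minus EDL, 4 for soleus minus myotube, 9 to 10 in EDL minus myoblast and 10 in soleus minus myoblast. An array left out leaves its group with 2, and the spread is pooled over groups.

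Sign changes with normexp were Samhd1 (dim probe) in myotube minus myoblast (-1.09), Nt5m (-0.09) and Cda (0.38) in soleus minus myotube, and between the muscles Samhd1 (dim probe, 0.21), Ada (0.15), Pnp (0.11) and Upp1 (0.90). Sign changes with spike-in scaling, which lowers every probe alike, were in EDL minus myotube Nt5m (-0.73), Tymp (-0.78), Pnp (-0.54 and -0.62) and Upp1 (-0.25), in soleus minus myotube Samhd1 (dim probe, -0.07), Nt5m (-1.11), Tymp (-0.91), Pnp (-0.67 and -0.89) and Upp1 (-1.01), in soleus minus EDL Nt5e (-0.17), Tymp (-0.13) and Pnp (-0.13), and against myoblasts Nt5m (-1.01 in soleus, -0.63 in EDL). With quantile normalization Upp1 was -0.61 in soleus minus myotube and -0.32 in EDL minus myotube. With arrays left out, Upp1 in soleus minus myotube ranged down to -0.13 (without myotube replicate 2; -0.11 without soleus replicate 1 and -0.03 without replicate 2), Cda there ranged from -0.37 to 0.08 (without soleus replicate 1), Pnp in soleus minus EDL from -0.07 (without replicate 2; -0.06 without soleus replicate 2) to 0.13, and Tymp there was 0.00 without replicate 2. Upp1 in EDL minus myotube, at background in both groups, was called without replicate 3 (1.25) or EDL replicate 3 (1.02). Samhd1 (first probe) in EDL minus myoblast passed a size of 1 with quantile normalization or the authors' values (-1.01), without replicate 2 (-1.01), without myoblast replicate 3 (-1.03) or without EDL replicate 2 (-1.02). Apart from the common shift under spike-in scaling, the cause of these changes was not tested. The normexp median over all probes was -0.61 in myotube minus myoblast and 0.67 in soleus minus myotube, and the quantile one -0.06 and -0.14. Upp1 in soleus, EDL and myotubes, and the second Samhd1 probe on part of the culture arrays, were not well above background, which limits what they measure.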
